A study of Drosophila melanogaster with 21 samples.

Results

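Open chromatin at a middle distance from expressed genes was followed in L1 neurons of the fly through the second part of pupal life. A peak was taken when its deposited distance from the nearest gene start was 2 to 10 kb and that gene stood in the deposited RNA table, noncoding RNA genes left out. The RNA table entered the choice in this way, and of its 7076 genes 6939 reached 1 RPKM in at least 2 libraries. No level or change of a peak was used. Of 26121 ATAC peaks, 2987 (11.4%) met it, and they lay nearest to 1466 genes. They are called gene-flank peaks below. A further 1868 peaks at the same distances had a nearest gene that was not in the RNA table, and these were not taken.

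L1 neurons are lamina neurons of the optic lobe, which receive histamine signals from photoreceptors and relay them to the medulla. In pupae these cells pass from axon and dendrite growth to synapse assembly, under pulses of the steroid hormone ecdysone that set off a cascade of transcription factors. ATAC-seq cuts accessible DNA with a transposase, and reads pile up at promoters, enhancers and other regions where nucleosomes are displaced. Peaks a few kilobases from a gene start often lie in the first introns or upstream flank of the gene, where many fly enhancers sit. The nearest gene is a positional assignment and need not be the gene that a region regulates.

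Wild-type L1 neurons had been sorted by flow cytometry from brains of pupae of 3 ages with no treatment: 40 h, 60 h and 72 h counted from puparium formation. Bulk ATAC-seq had 2 libraries at each age, and bulk RNA-seq had 2, 3 and 2 libraries. Whether the libraries came from separate animals is not stated in these sources. The p-values below therefore measure only the spread between these libraries, which may be technical. Single-cell samples of the series were not used here.

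Each ATAC library had 12.7 to 19.8 M reads in peaks, and the median gene-flank peak held 246 to 309 reads in each. Across all tested peaks the libraries of each age correlated at 0.968 at 40 h, 0.842 at 60 h and 0.861 at 72 h on the log2 scale, so the replicates of the 2 later ages stood further apart. In the RNA libraries 8 of 8 markers of L1 and other neurons were measured. Their summed level was 1013 to 1026 RPKM at 40 h, 1294 to 1429 RPKM at 60 h and 2467 to 3173 RPKM at 72 h. At 72 h against 40 h 4 of these markers were higher and 3 lower (dac, elav and brp). Much of the rise in the sum was ort, with 846 and 600 RPKM at 72 h and 3.98 and 5.02 RPKM at 40 h. Over the 3 ages in order, glial markers summed to 23.8 to 39.5, then 43.0 to 86.2, then 547 to 1665 RPKM, with 7 of 8 measured markers higher at 72 h than at 40 h and none at 0. Photoreceptor markers summed to 27.8 to 95.5, then 80.2 to 496, then 40.8 to 124 RPKM, with 2 of 9 higher and 1 lower at 72 h than at 40 h. Hemocyte markers summed to 353 to 360, then 268 to 412, then 103 to 126 RPKM. Of 5 such markers 3 were measured, and Pxn made up most of the sum at 40 h (341 and 332 RPKM). It fell to 43.9 and 43.5 RPKM at 72 h, while crq was higher at 72 h than at 40 h (1.79 ± 0.17). Hml was under 0.5 RPKM in all libraries. The part of such cells in the results below was not tested. In sorted bulk cells, fewer cells of a type and less RNA per cell cannot be told apart.

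Gene-flank peaks were mostly inside genes. Distances were positive for 2591 peaks (86.7%), which lay downstream of the gene start, and negative for 396, which lay upstream. Of 2478 downstream peaks whose gene was in the RefSeq gene table, 2283 (92.1%) fell within the span of that gene. The median distance was 5486 bp (quartiles 3534 and 7514 bp) and the median width 436 bp, against 459 bp for all peaks. Of the 1466 genes, 728 had 1 such peak, 356 had 2 and 382 had 3 or more, up to 10. Peaks could be close to each other: 578 (19.4%) had another peak within 10 bp, so neighbouring peaks can be pieces of 1 open region. Chromosome arm 3R held 669 of them, 2R 647, 3L 627, 2L 500, X 456 and chromosome 4 held 88.

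The peaks at the edges of the distance range are given as a description. The nearest peaks inside the lower bound belonged to GstS1 (2003 bp; 21.0 to 54.7 RPKM over the 6 libraries) and DAT (2004 bp; 11.7 to 69.3 RPKM). Just outside it were peaks of lok (1996 bp; 37.0 to 57.0 RPKM) and ens (1994 bp; 8.97 to 64.3 RPKM). At the upper bound Dscam2 (9994 bp; 29.6 to 88.4 RPKM) and nocte (9988 bp; 38.7 to 72.4 RPKM) were inside. CG17167 (10004 bp; 29.8 to 47.6 RPKM) and amon (10007 bp; 26.6 to 58.0 RPKM) were outside.

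In the deposited values the middle of the distribution of levels barely moved with age, while its width shrank. The flat middle depended on the scaling. With each library scaled to its total reads in peaks, the median tested gene-flank peak changed by 0.40 log2 units at 72 h against 40 h. As deposited that median change was -0.002. The median gene-flank peak stood at 38.1 and 40.0 RPKM at 40 h, 37.9 and 41.1 RPKM at 60 h, and 40.1 and 44.9 RPKM at 72 h, in reads per kilobase of peak and per 1 M reads. The standard deviation of log2 level across the 2987 peaks was 1.07 and 1.26 in the 40 h libraries, 0.901 and 0.752 in the 60 h ones, then 0.680 and 0.700 in those of 72 h. Levels thus varied more between peaks in both 40 h libraries than in any later library. At 60 h replicate 2 was the narrower library of the pair. The same narrowing was present in promoter peaks (under 2 kb; 0.600 and 0.640 at 72 h against 0.860 and 0.989 at 40 h) and in distal peaks (beyond 10 kb; 0.627 and 0.670 at 72 h against 0.943 and 1.12 at 40 h). Gene-flank peaks took 10.4% and 10.8% of the reads in peaks in the 40 h libraries, then 9.94% and 9.68% in the 60 h ones and 9.43% and 9.67% in those of 72 h.

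**Figure D1:**
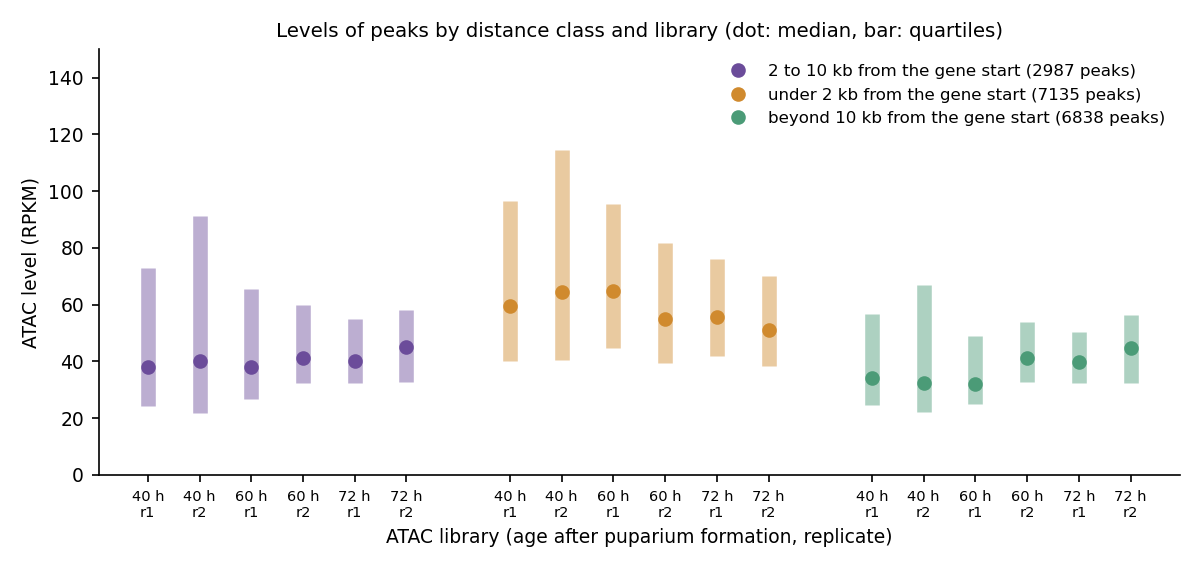
ATAC level in RPKM (vertical axis, from 0) in each of the 6 libraries for gene-flank peaks (2 to 10 kb, left), promoter peaks (under 2 kb, middle) and distal peaks (beyond 10 kb, right); dots are medians over peaks and bars span the quartiles. In the deposited scaling the gene-flank medians stay between 37.9 and 44.9 RPKM while the quartiles draw together with age.

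Of the 2611 gene-flank peaks tested, 770 were more open and 958 less open at 72 h than at 40 h, and 883 did not pass the threshold (limma on log2(RPKM + 1), Benjamini-Hochberg adjusted p under 0.05 over all 23508 tested peaks). More open peaks were 29.5% and less open ones 36.7% of the gene-flank peaks, against 26% and 29.4% of all tested peaks (55.4% in either direction). The other 376 gene-flank peaks were not tested because their mean level was in the lowest 10% of all peaks. The 770 more open peaks had medians of 47.0 and 54.4 RPKM at 72 h and 22.6 and 20.3 RPKM at 40 h, with 37.7 and 42.3 RPKM at 60 h. The 958 less open peaks had medians of 32.6 and 33.7 RPKM at 72 h and 97.8 and 125 RPKM at 40 h, with 54.6 and 44.4 RPKM at 60 h. The 2 sets stood far apart at 40 h and much nearer to each other, and in the opposite order, at 72 h. They were chosen by their change between these ages, so this pattern follows in part from the choice. Changes of at least 2-fold were called for 491 gene-flank peaks upward (18.8%) and 690 downward (26.4%), against 15.1% and 18.1% of all tested peaks. Changes of at least 4-fold were called for 83 (3.18%) and 263 (10.1%), against 1.41% and 5.71% of all tested peaks. A rise of at least 8-fold was called for 4 peaks (0.153%) and a fall of that size for 53 (2.03%), against 0.0893% and 1.06% of all tested peaks.

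The balance of directions depended on the scaling and on the filter on low peaks. When each library was scaled to its total reads in peaks, the median change of all peaks moved to 0.44 log2 units, against 0.04 as deposited, and 1122 gene-flank peaks were more open and 752 less open (59.9% of calls upward, against 44.6%). With no filter on low peaks 1008 were more open and 991 less open (50.4% upward), and with the lowest 25% of peaks left out 507 and 898 (36.1% upward). Without 40 h replicate 2 the number more open was 455, and without 72 h replicate 2 it was 475.

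Direction went with the mean level of a peak, taken over all 6 libraries, the compared ones included. Among the lowest 20% of tested gene-flank peaks by this mean (30.1 to 33.7 RPKM), 265 of 523 were more open and 64 less open at 72 h than at 40 h, with a median log2 change of 0.68. Among the highest 20% (77.3 to 502 RPKM), 30 of 522 were more open and 382 less open, with a median of -1.05. The 3 groups between them had medians of 0.45, 0.05 and -0.42. Less open peaks were also wider, with a median width of 535 bp against 440 bp for more open ones.

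**Figure D2:**
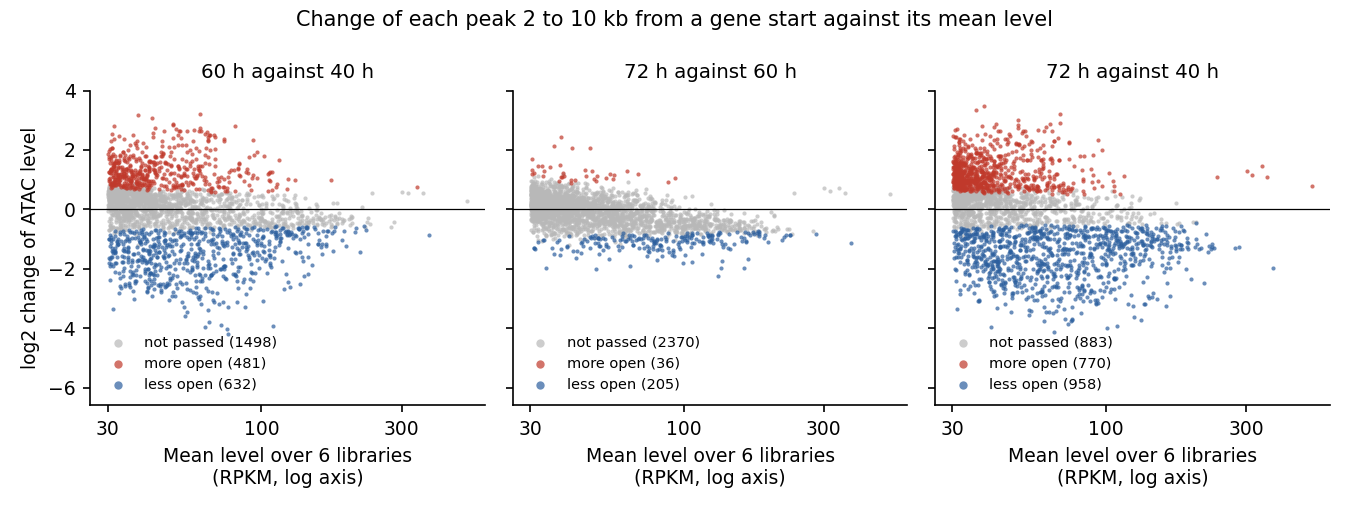
The log2 change of each tested gene-flank peak (vertical axis) against its mean level over 6 libraries (horizontal axis, RPKM on a log axis) for the 3 comparisons; red dots are more open, blue dots less open and grey dots did not pass. Rises crowd at low mean levels and falls reach to the high ones, and 72 h against 60 h holds far fewer calls (36 and 205).

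Upstream peaks were counted apart from downstream ones. Upstream, 129 of 352 peaks were more open and 93 less open at 72 h than at 40 h, with a median of 0.44. Downstream, 641 of 2259 were more open and 865 less open, with a median of -0.10. Among the 56 tested peaks that lay 8 to 10 kb upstream, 30 were more open and 9 less open (median 0.81), while the 4 downstream distance bins had medians of -0.13 to -0.07. On the X chromosome 82 of 418 peaks were more open and 186 less open. On chromosome 4, a small and largely heterochromatic chromosome, 21 of 77 were more open and 5 less open. The upstream excess of more open calls was limited to 72 h against 40 h. Upstream, 31 peaks were more open and 61 less open at 60 h against 40 h (median 0.25). At 72 h against 60 h the upstream numbers were 2 and 15 (median 0.17). These splits were not tested against each other.

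Set beside the other distance classes, gene-flank peaks had an intermediate median change and the highest share of less open peaks. Their median change at 72 h against 40 h was -0.002 log2 units, against -0.26 for 6923 promoter peaks and 0.31 for 5983 distal peaks. More open peaks made up 29.5% of gene-flank, 8.62% of promoter and 34.1% of distal peaks, and less open ones 36.7%, 31.2% and 29.8%. The gap between the gene-flank and promoter medians was -0.46 and -0.18 log2 units in the 72 h libraries and -0.64 and -0.68 in the 40 h libraries. With 2 libraries at each age the exact two-sided permutation test of that gap could not go below p = 0.333, which is the value it gave.

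The largest rise from 40 h to 72 h was at ftz-f1, which encodes a nuclear receptor of the ecdysone cascade that acts when hormone levels have dropped. The peak (chr3L:18794928-18795256, 6.05 kb downstream of a start of the gene) had 6.63 and 7.79 RPKM at 40 h, 13.2 and 19.6 RPKM at 60 h, and 87.0 and 95.7 RPKM at 72 h. It was nearly closed at the first age and reached the level of a strong peak only at the last, with no overlap between ages. The log2 change at 72 h against 40 h was 3.49 ± 0.31 (SE, adjusted p = 8.9e-06). ftz-f1 RNA followed another time course, with 0.788 and 0.448 RPKM at 40 h, 43 to 65 RPKM at 60 h, and 59.9 and 60.5 RPKM at 72 h. Most of the RNA rise thus came before most of the opening of this peak, which changed by 1.06 ± 0.31 at 60 h against 40 h (adjusted p = 0.024): RNA changed by 5.08 ± 0.19 at 60 h against 40 h and by 0.17 ± 0.19 (adjusted p = 0.56) at 72 h against 60 h.

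The locus held 7 gene-flank peaks with different courses. Their deposited distances do not all run to the same start of the gene, so they are not positions along 1 axis. Another peak, at 5.13 kb, had 5.98 and 8.32 RPKM at 40 h, 15.1 and 21.6 RPKM at 60 h, and 70.1 and 95.5 RPKM at 72 h, close to the first peak in timing and size. The peak at 4.64 kb (chr3L:18760634-18761103) had 37 and 50 RPKM at 40 h, 168 and 143 RPKM at 60 h, and 93.4 and 74.6 RPKM at 72 h. It was highest at 60 h, when the RNA had already risen. The remaining 4 peaks did not pass at 72 h against 40 h (log2 changes of -0.51 to 0.43).

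The next 7 rises were at genes of kinases, a ubiquitin ligase adaptor, membrane traffic and a potassium channel. Doa encodes a LAMMER-family kinase that phosphorylates splicing factors. Its peak (chr3R:28892540-28893047, 4.47 kb) had 15.2 and 12.3 RPKM at 40 h, 51.1 and 67.2 RPKM at 60 h, and 127 and 146 RPKM at 72 h, a change of 3.22 ± 0.23 (adjusted p = 4e-06). The 3 ages formed 3 separate steps, and Doa RNA was higher only at the last step (2.54 ± 0.18 at 72 h against 60 h, and -0.23 ± 0.18 at 60 h against 40 h, adjusted p = 0.31). Nuak1 encodes a kinase related to AMPK. Its peak had 14.5 and 13.9 RPKM at 40 h, 75.5 and 86.4 RPKM at 60 h, and 114 RPKM in both libraries at 72 h, and its RNA was 23.8 to 30.9 RPKM in all 5 later libraries, against 1.09 and 1.05 RPKM at 40 h. Peak and RNA at Nuak1 both made their main step by 60 h.

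Shal encodes a Kv4-type potassium channel that carries a transient current. Its peak (chr3L:19578887-19579275, 5.29 kb) had 12.9 and 11.8 RPKM at 40 h, 15.6 and 28.2 RPKM at 60 h, and 83.8 and 98.0 RPKM at 72 h, a change of 2.78 ± 0.30 (adjusted p = 2.7e-05). Shal opened late, like the 2 ftz-f1 peaks, and its RNA was higher in both intervals (1.52 ± 0.15 and 1.44 ± 0.15). The rises at CG32428 (3.02 ± 0.23), rdx (2.88 ± 0.29), Rbcn-3A (2.84 ± 0.22) and Ehbp1 (2.76 ± 0.21) were reached by 60 h. At those 4 peaks the 60 h libraries had 53.1 to 84.0 RPKM and the 40 h libraries 5.77 to 12.9 RPKM. rdx encodes an adaptor of a Cullin-3 ubiquitin ligase, Rbcn-3A a rabconnectin that acts with the vacuolar proton pump, and Ehbp1 a protein of endocytic traffic. RNA of all 8 genes was higher at 72 h than at 40 h, by 0.75 to 5.25 log2 units.

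The largest falls were at peaks that stood above the median gene-flank peak at 40 h (38.1 and 40.0 RPKM). This follows largely from the choice, since a tested peak needed a mean level above 30.1 RPKM and these peaks ended low. The peak of hid (chr3L:18181467-18182661, 2.98 kb), a gene whose protein triggers apoptosis by blocking the caspase inhibitor Diap1, had 251 and 332 RPKM at 40 h, 18.3 and 18 RPKM at 60 h, and 18.7 and 17.4 RPKM at 72 h. All of the closing came before 60 h, and the change at 72 h against 40 h was -3.92 ± 0.22 (adjusted p = 3.8e-06). RNA of hid was at most 0.601 RPKM in all later libraries, against 40.7 and 47.9 RPKM at 40 h. Spn, for the scaffold Spinophilin, and Eaf6, for a subunit of histone acetyltransferase complexes, had the same early course. The Spn peak had 170 and 242 RPKM at 40 h, 8.15 and 12.5 RPKM at 60 h, and 13 and 15.6 RPKM at 72 h. The Eaf6 peak, 3.30 kb upstream, had 167 and 189 RPKM at 40 h, 11.6 and 12.4 RPKM at 60 h, and 10.1 and 8.42 RPKM at 72 h.

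At tou, side-V and Galphao the fall went on after 60 h. The peak of tou, for a protein of chromatin remodelling, had 254 and 292 RPKM at 40 h, 125 and 75.2 RPKM at 60 h, and 20.7 and 18.8 RPKM at 72 h. It lost a part of its level in each interval (-1.48 ± 0.24 and -2.24 ± 0.24). The side-V peak, at a gene of the sidestep family of immunoglobulin surface proteins, also closed in both (-2.33 ± 0.27 and -1.42 ± 0.27), and the Galphao peak, at the gene of a G protein alpha subunit, did too (-3.10 ± 0.23 and -0.89 ± 0.23). The peak of ena, for an actin regulator of growth cones, had 90.0 and 115 RPKM at 40 h, 16.9 and 11.7 RPKM at 60 h, and 4.71 and 6.66 RPKM at 72 h. It closed by 60 h (-2.77 ± 0.34), and its later change did not pass (-1.19 ± 0.34, adjusted p = 0.068). RNA was lower at 72 h than at 40 h for Eaf6, ena, hid, Spn and tou (-4.85 to -1.19), and did not pass for Galphao (0.52 ± 0.24, adjusted p = 0.083) or side-V (-0.17 ± 0.38).

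**Figure D3:**
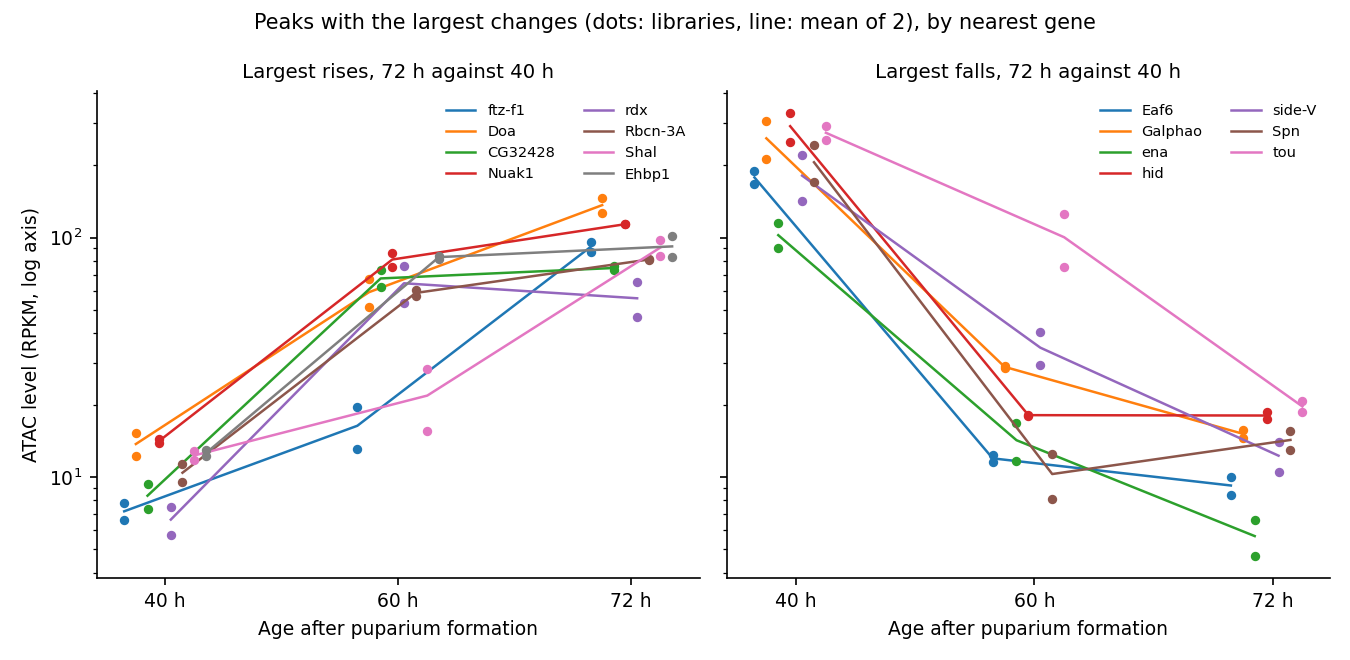
ATAC level in RPKM (vertical log axis) at 40 h, 60 h and 72 h (horizontal axis) for the 8 largest rises (left) and 7 of the 8 largest falls (right) at 72 h against 40 h; dots are single libraries and lines join the means of 2 libraries, coloured by nearest gene. Most rises were reached at 60 h, the ftz-f1 and Shal peaks rose mainly at 72 h, and the falls start from 90.0 to 332 RPKM.

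Between 40 h and 60 h, 481 gene-flank peaks became more open and 632 less open, and 1498 did not pass. These were 18.4% and 24.2% of the tested gene-flank peaks, against 10.7% and 16% of all tested peaks (26.7% in either direction). The 481 more open peaks had medians of 53.7 and 50.1 RPKM at 60 h and 19.8 and 19.9 RPKM at 40 h. The 632 less open peaks had medians of 37.3 and 32.0 RPKM at 60 h and 96.6 and 124 RPKM at 40 h. Scaled to total reads in peaks, the counts were 691 and 527 (56.7% upward, against 43.2%). Without 40 h replicate 2, 386 were less open. Without 60 h replicate 1 the balance turned, with 702 more open and 687 less open (50.5% upward).

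The largest rise of that interval was at CG32647, where the peak (chrX:12780951-12781444, 3.51 kb) had 9.94 and 10.5 RPKM at 40 h, 125 and 84.2 RPKM at 60 h, and 82.7 and 57.9 RPKM at 72 h. Its RNA was 1.82 and 2.18 RPKM at 40 h, 39.0 to 80.7 RPKM at 60 h, and 265 and 243 RPKM at 72 h, so the RNA went on rising when the peak did not. Liprin-gamma, of a family of synaptic scaffold proteins, had a peak that was open mainly at 60 h. It had 7.41 and 8.30 RPKM at 40 h, 89.5 and 69.8 RPKM at 60 h, and 24.8 and 28.0 RPKM at 72 h. Its RNA had the same shape, with 28.2 and 30.9 RPKM, 87.4 to 113 RPKM, and 50.4 and 71.4 RPKM. rdx, CG32428 and CG7378 were the other 3 of the 5 largest rises (2.83 to 3.08).

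The 5 largest falls to 60 h were at Spn (-4.20 ± 0.28), hdc (-4.04 ± 0.24), chm (-3.96 ± 0.30), hid and Eaf6. The hdc peak, at headcase, a gene of imaginal cells needed to form the adult head, had 175 and 232 RPKM at 40 h, 10.4 and 12.4 RPKM at 60 h, and 14.6 and 14.8 RPKM at 72 h. The chm peak, at the gene of a MYST-family histone acetyltransferase, had 7.87 and 11.9 RPKM at 60 h, against 136 and 200 RPKM at 40 h. All 5 peaks had lost nearly all of their level by 60 h. RNA of hdc was under 0.9 RPKM in every library and was not tested.

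Between 60 h and 72 h, 36 gene-flank peaks became more open and 205 less open, and 2370 did not pass. These were 1.38% and 7.85% of the tested gene-flank peaks, against 0.723% and 4.39% of all tested peaks (5.11% in either direction). The counts rested on single libraries. Without 60 h replicate 2 they were 277 and 459, and without 72 h replicate 2 they were 4 and 39. Leaving out 40 h replicate 2 gave 8 and 69, 40 h replicate 1 gave 17 and 148, 60 h replicate 1 gave 26 and 86, and 72 h replicate 1 gave 17 and 98. In a limma fit of the 60 h and 72 h libraries alone 0 gene-flank peaks passed, 799 had an unadjusted p under 0.05, and limma's voom test on recovered reads gave 35 and 149. Scaled to total reads in peaks the counts were 46 and 115 (28.6% upward, against 14.9%).

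Late rises were led by the ftz-f1 peak at 6.05 kb (2.43 ± 0.31, adjusted p = 0.0063). The peak of dally, for a cell surface proteoglycan that shapes morphogen gradients, followed. It lay 2.81 kb upstream and had 23.2 and 26.2 RPKM at 40 h, 19.9 and 24.6 RPKM at 60 h, and 94.1 and 99.1 RPKM at 72 h. The level was flat over the first interval and stood apart at 72 h, and dally RNA was higher at 72 h than at 60 h (1.76 ± 0.36, adjusted p = 0.0035). Its 72 h libraries were unequal, with 4.73 and 11.2 RPKM. Shal, trio and CG4238 completed the 5 (1.47 to 2.06). trio encodes a guanine nucleotide exchange factor of axon guidance, and its peak had 12.6 and 15.3 RPKM at 40 h, 24.9 and 26.3 RPKM at 60 h, and 69.3 and 79.5 RPKM at 72 h. Calls at ftz-f1, Shal, trio and CG4238 were lost without 72 h replicate 2, and CG4238 also without 72 h replicate 1 or 40 h replicate 2.

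Late falls were led by tou and by Dyb, the gene of dystrobrevin, a partner of dystrophin. The Dyb peak (chr2R:12440154-12440448, 2.81 kb) had 19.8 and 26.8 RPKM at 40 h, 109 and 97.5 RPKM at 60 h, and 23 and 26.8 RPKM at 72 h. It was open at 60 h alone and ended at its first level, with 0.10 ± 0.23 at 72 h against 40 h (adjusted p = 0.72). Dyb RNA was 251 and 257 RPKM at 40 h, 279 to 326 RPKM at 60 h, and 15.8 and 36.8 RPKM at 72 h, so it fell when the peak closed and was already high before the peak opened. At Tbh, for the enzyme that makes octopamine, the peak had 43.0 and 28.6 RPKM at 60 h and 10.8 and 6.07 RPKM at 72 h. Tbh RNA was 8.93 and 8.95 RPKM at 40 h, 36.0 to 71.9 RPKM at 60 h, and 0.178 and 3.72 RPKM at 72 h. The peaks of osa, for a subunit of a SWI/SNF remodelling complex, and of dpr6 also closed (-1.96 ± 0.22 and -1.81 ± 0.22), and RNA of neither gene passed.

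Gene-flank peaks were then read by the function of their nearest gene, in 7 lists. Calls here are for 72 h against 40 h, and peaks named beyond the largest rise and fall of each list were picked after their values were seen. The lists differed in how high their peaks stood. The median mean level of list peaks was 43.8 to 78.6 RPKM, against 44.1 RPKM for all tested gene-flank peaks. The counts stand beside 29.5% more open and 36.7% less open among all tested gene-flank peaks, and beside 30.2% higher and 29.1% lower among all tested RNA genes. Changes of scaling moved the counts of several lists. Scaling to total reads in peaks also moved the median of all tested peaks, to 0.44 from 0.04 log2 units. None of the lists was tested against other peaks.

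Genes of the ecdysone cascade had 47 tested peaks at 15 genes, of which 10 were more open (21.3%) and 18 less open (38.3%), with a median of -0.15. The share less open was thus near that of all gene-flank peaks. Blimp-1, for a repressor that delays ftz-f1 until ecdysone has dropped, had the largest fall. Its peak (chr3L:5636346-5638237, 5.36 kb) had 273 and 360 RPKM at 40 h, 60.5 and 48.9 RPKM at 60 h, and 32.5 and 35.1 RPKM at 72 h, a change of -3.18 ± 0.21. Blimp-1 RNA was at most 1.2 RPKM in all later libraries, against 86.5 and 76.3 RPKM at 40 h. The 3 peaks of Hr4, for an early-late nuclear receptor, all closed (-3.00 to -2.34), and Hr4 RNA was lower too (-3.03). Of the 3 peaks of DopEcR, for a membrane receptor of dopamine and ecdysteroids, 2 opened (1.25 and 1.83), with RNA higher by 4.23. EcR, the gene of the hormone receptor itself, had a peak that closed at 5.61 kb (-1.12) and another that opened at 8.60 kb (1.90), while its RNA did not pass (-0.26 ± 0.17, adjusted p = 0.22). The list median was 0.25 when scaled to total reads in peaks and 0.27 under quantile normalization, with 18 more open and 13 less open, and 15 and 14. The median of all tested peaks moved too. Relative to it, the list median was -0.19 as deposited, -0.18 scaled to total reads in peaks and 0.18 under quantile normalization. The direction of the list as a whole was therefore not stable to quantile normalization.

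Eip74EF, for an ETS-domain factor of the early ecdysone response, had 8 tested peaks that moved apart. The peak at 7.98 kb had 31.1 and 20.8 RPKM at 72 h and 187 and 189 RPKM at 40 h. The peak at 6.70 kb had 62.0 and 77.5 RPKM at 72 h and 307 and 415 RPKM at 40 h. Both closed, and another peak opened. The peak at 9.65 kb had 107 and 110 RPKM at 72 h and 45.5 and 50.9 RPKM at 40 h. The remaining less open peak, at 2.12 kb, changed by -0.58 ± 0.21, and the other 4 did not pass. Eip74EF RNA was lower at 72 h than at 40 h (-1.06).

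Lamina and neuronal transcription factors had 30 tested peaks, 4 more open (13.3%) and 19 less open (63.3%), with a median of -1.20. Scaled to total reads in peaks the counts were 8 and 18 and the median -0.80. bab1 and bab2, for paired BTB-domain factors, supplied the largest rise and the largest fall. The bab2 peak (chr3L:1170408-1170755, 6.52 kb) had 139 and 203 RPKM at 40 h, 17.7 and 19.6 RPKM at 60 h, and 16.1 and 17.6 RPKM at 72 h. bab2 RNA was low throughout, 3.72 and 9.02 RPKM at 72 h against 0.850 and 1.27 RPKM at 40 h, a rise of 1.75 ± 0.47 against the closing of its peak. The bab1 peak, 6.46 kb upstream, had 10.6 and 12.6 RPKM at 40 h, 45.6 and 48.8 RPKM at 60 h, and 33.1 and 51.7 RPKM at 72 h. RNA of bab1 was under 1 RPKM in all libraries and was not tested. All 5 peaks of pros, for a factor that ends neural progenitor divisions, changed by -1.92 to -1.5 log2 units, and the 3 peaks each of zfh2 and sim by -1.35 to -1.14. RNA of sim was lower (-0.91 ± 0.14), RNA of zfh2 did not pass (-0.23 ± 0.16, adjusted p = 0.26), and pros had too little RNA to test.

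Adhesion and guidance genes formed the largest list, with 115 tested peaks at 53 genes. Of these, 16 were more open (13.9%) and 52 less open (45.2%), with a median of -0.16. Scaled to total reads in peaks the median turned to 0.24, with 35 more open and 44 less open. Relative to the median of all tested peaks, the list median was -0.20 in both settings and -0.30 under quantile normalization. dpr15 and dpr12 encode immunoglobulin surface proteins whose partners are the DIP proteins. The dpr15 peak (chr3R:12151854-12152533, 6.06 kb) had 131 and 207 RPKM at 40 h, 14.9 RPKM in both 60 h libraries, and 14.5 and 13 RPKM at 72 h. dpr15 RNA was 1.69 to 10.3 RPKM in all later libraries, against 117 and 157 RPKM at 40 h, so peak and RNA both fell early. The dpr12 peak opened, with 9.77 and 9.44 RPKM at 40 h, 29.0 and 32.0 RPKM at 60 h, and 42.9 and 66.2 RPKM at 72 h, while its RNA did not pass (0.86 ± 0.45, adjusted p = 0.13).

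Several adhesion and guidance genes had less open peaks and lower RNA. Peaks of CadN (N-cadherin), drl (a Wnt5 receptor), Alk and its ligand jeb, comm, DIP-gamma, Lac and kirre changed by -3.16 to -1.48 log2 units at their called sites. RNA of each was lower, from -6.84 at Lac to -1.28 at Alk. At other genes the RNA went against most of the called peaks. Drl-2 had 3 less open peaks (-2.54 to -1.59) and higher RNA (3.91), Nlg3 (neuroligin 3) had 3 of 4 peaks less open (-2.16 to -1.25) and higher RNA (1.27), and dpr4 had 2 less open peaks (-2.48 and -1.91), a more open one (2.07) and higher RNA (0.69 ± 0.24, adjusted p = 0.031). Peak and RNA both rose at side-IV, where RNA was 11 and 9.63 RPKM at 72 h and 0.406 and 0.505 RPKM at 40 h. Its tested peak had 85.5 and 93.1 RPKM at 72 h and 28.4 and 26.8 RPKM at 40 h.

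Presynaptic genes had 21 tested peaks, 5 more open (23.8%) and 12 less open (57.1%), with a median of -0.88. The counts were 7 and 11 and the median -0.48 when scaled to total reads in peaks. RNA was higher for 9 of 15 such genes (60.0%) and lower for 5 (33.3%), against 30.2% and 29.1% of all tested genes. Rim and Rbp encode scaffold proteins of the active zone, where vesicles are released. The Rim peak at 5.64 kb had 141 and 145 RPKM at 40 h, 30.5 and 25.4 RPKM at 60 h, and 27.0 and 31.3 RPKM at 72 h, and Rim RNA was lower as well (-0.72 ± 0.24). The Rbp peak at 5.49 kb (chr3R:15380123-15380373) had 34.1 and 32.6 RPKM at 40 h, 94.5 and 108 RPKM at 60 h, and 111 and 125 RPKM at 72 h. Rbp RNA rose with it, to 27.1 and 31.7 RPKM at 72 h, against 3.63 and 7.66 RPKM at 40 h. A second Rbp peak, at 3.51 kb, closed (-1.17). Both peaks of cpx, for complexin, a clamp of vesicle fusion, closed (-1.45 and -1.37) while its RNA rose by 2.33.

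Ion channel genes had 35 tested peaks, 10 more open (28.6%) and 11 less open (31.4%), with a median of -0.04. The balance turned with the scaling, to 14 and 6 (median 0.36) when scaled to total reads in peaks and to 11 and 5 (median 0.19) under quantile normalization. Relative to the median of all tested peaks, the list median was -0.07 as deposited, and -0.08 and 0.11 in these settings. RNA of 14 of 20 such genes (70.0%) was higher at 72 h than at 40 h and of 1, Shawl, lower, against 30.2% and 29.1% of all tested genes. Besides the Shal peak, a second Shal peak at 6.04 kb opened (2.44), and both rose mainly after 60 h. Peaks of SK, slo, eag and para, for potassium and sodium channels, were more open by 0.72 to 1.93, and another SK peak was less open (-0.95). Sh, for the founding voltage-gated potassium channel, had a peak at 2.01 kb with 115 and 137 RPKM at 40 h, 72.8 and 61.8 RPKM at 60 h, and 23.9 and 29.7 RPKM at 72 h. Another Sh peak, at 4.61 kb, opened (1.57), the one at 5.47 kb closed slightly (-0.62), and Sh RNA did not pass (-0.17 ± 0.36). All 3 called Shawl peaks closed (-1.90 to -0.69), with RNA lower by 4.69. At Nckx30C, for a calcium exchanger, RNA was higher by 6.99 while its called peak was less open (-0.64).

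Transmitter receptor genes had 52 tested peaks, 12 more open (23.1%) and 25 less open (48.1%), with a median of -0.51. Scaled to total reads in peaks the counts were 17 and 16, with a median of -0.11, so the excess of less open over more open peaks was not stable. Relative to the median of all tested peaks, the list median was -0.55 in both settings and -0.42 under quantile normalization. The largest rise was at Octbeta2R, for an octopamine receptor, where the peak (chr3R:12589759-12590612, 3.39 kb) had 8.81 and 13.4 RPKM at 40 h, 75.6 and 69.4 RPKM at 60 h, and 68.9 and 78.1 RPKM at 72 h. Octbeta2R RNA lagged behind it, with 0.467 and 0.509 RPKM at 40 h, 0.446 to 1.03 RPKM at 60 h, and 5.20 and 5.81 RPKM at 72 h. GluClalpha, for the glutamate-gated chloride channel, had the largest fall and also a strong rise. Its peak at 9.85 kb had 64.7 and 106 RPKM at 40 h, 34.0 and 38.8 RPKM at 60 h, and 11.4 and 13.6 RPKM at 72 h. Its peak at 8.39 kb had 17.9 and 22.8 RPKM at 40 h, 105 and 103 RPKM at 60 h, and 90.6 and 110 RPKM at 72 h. GluClalpha RNA was higher at 72 h than at 40 h (1.72 ± 0.33). For ort, the histamine receptor gene of L1, RNA was higher by 7.03 and the only gene-flank peak was slightly less open (-0.86 ± 0.28, adjusted p = 0.021).

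Axon growth and cytoskeleton genes had 26 tested peaks, 3 more open (11.5%) and 18 less open (69.2%), with a median of -1.09. With scaling to total reads in peaks they were 5 and 16, with a median of -0.69. RNA of 4 of 17 such genes was higher (23.5%) and of 10 lower (58.8%), against 30.2% and 29.1% of all tested genes. Of 4 ena peaks 3 closed, and all 3 peaks of stai, for the microtubule regulator stathmin, closed too (-3.96 to -1.88 for these 6). The chic peak, at the profilin gene, had 42.9 and 52.2 RPKM at 72 h and 162 and 192 RPKM at 40 h, and chic RNA was lower by 3.71. The 3 more open peaks were at trio (2.34), futsch (1.68) and capu (1.55). futsch, for a microtubule-associated protein of axons and synapses, also had a less open peak upstream (-1.20).

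**Figure D4:**
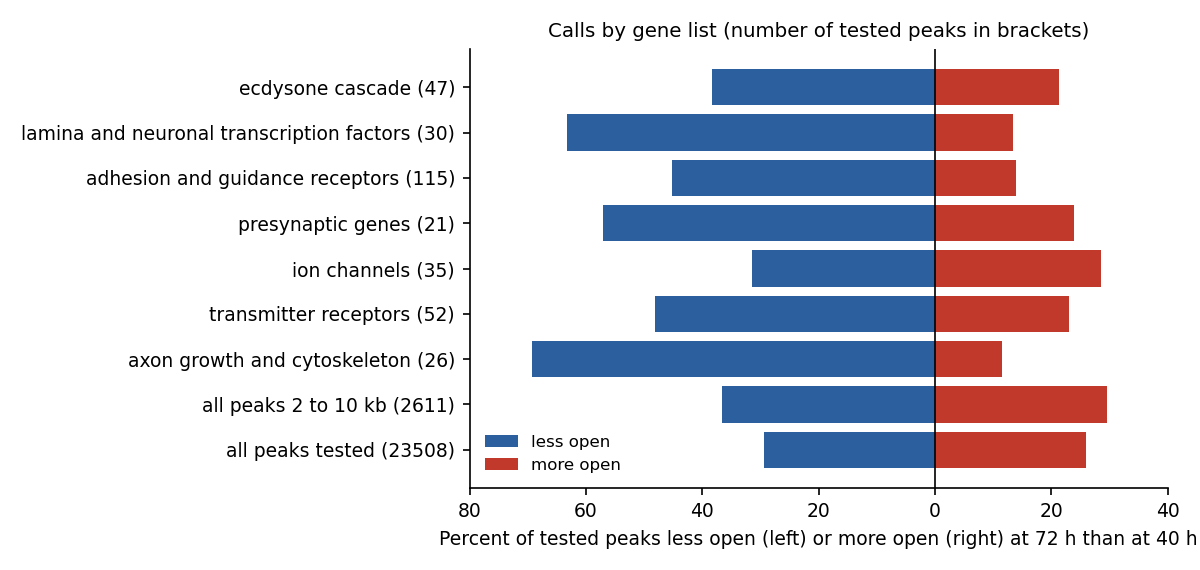
Percent of tested gene-flank peaks less open (bars to the left of 0) and more open (to the right) at 72 h than at 40 h for the 7 gene lists, with all gene-flank peaks and all tested peaks in the lowest 2 rows; the number of tested peaks is in brackets. Axon growth and cytoskeleton genes reach 69.2% less open and lamina and neuronal transcription factors 63.3%, while ion channel genes lie at 31.4%.

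Genes with several gene-flank peaks showed how far neighbours moved together. At 72 h against 40 h, 418 genes had at least 2 called peaks. In 126 of them all called peaks were more open, in 186 all were less open, and in 106 they went in both directions. The corresponding numbers were 76, 131 and 58 of 265 genes at 60 h against 40 h, and 2, 35 and 3 of 40 genes at 72 h against 60 h. Of all called gene-flank peaks, 44.6%, 43.2% and 14.9% were more open in these comparisons, so many genes would share a direction without any link between their peaks. Adjoining pieces of 1 open region also count as agreement. Agreement beyond this was not tested.

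Of the genes with the most gene-flank peaks, 5 had 9 or 10 and 9 had 8, and they took different courses. Myc, for a growth-promoting transcription factor, had 7 of 8 peaks less open (-1.33 to -0.67), and its RNA was lower by 1.97. CG42524 had 7 of 8 tested peaks less open. Its strongest peak, 2.2 kb upstream, had 113 and 134 RPKM at 72 h and 279 and 350 RPKM at 40 h. CG45002 had 5 peaks more open and 3 less open of 10, and shep, for an RNA-binding protein of neuronal remodelling, 2 and 3 of 9. The shep peak at 4.88 kb had 41.3 RPKM in both libraries at 72 h and 273 and 366 RPKM at 40 h. Eip74EF is described above. At PlexB, for a semaphorin receptor on chromosome 4, none of 8 peaks passed, and at Snx27 none of 7 tested. At rgn 1 of 10 peaks was more open and at Gfat1 1 of 9 less open. All 7 tested Spn peaks were less open (median -2.08), while bbg had 1 of 7 and dpr3 1 of 6 tested peaks less open.

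Map205, for a microtubule-binding protein, was the gene with all of its 8 peaks less open, by a small amount each (-0.84 to -0.55). Its 6 farther upstream peaks began 974 to 993 bp apart, in a regular row. They were nearly equal in level, with 73.1 to 82.9 and 74.3 to 87.2 RPKM in the 72 h libraries and 103 to 120 and 131 to 152 RPKM in the 40 h libraries. The sources used here do not say how reads that map to several places were handled, so these 6 peaks are counted with that doubt. Chosen after their values were seen, genes with nearly all tested peaks more open were l(3)80Fg (7 of 7 tested), CG32647 (6 of 6), Set1 (6 of 7), Stlk (6 of 6) and Gprk1 (5 of 5). The 7 l(3)80Fg peaks had 16.6 to 40.8 RPKM at 40 h, 24.1 to 67.5 RPKM at 60 h, and 36.4 to 71.4 RPKM at 72 h. Median changes were alike at l(3)80Fg (0.96), Set1 (0.90), Stlk (0.97) and Gprk1 (1.18), and higher at CG32647 (1.52). How reads that map to several places were handled is not known for these genes either.

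Few promoter peaks opened, also where a gene-flank peak of the same gene did. Of all tested promoter peaks, 8.62% were more open and 31.2% less open at 72 h than at 40 h. For 673 more open gene-flank peaks whose gene had a tested promoter peak, the promoter was more open for 56 (8.32%). It was less open for 266 (39.5%) and did not pass for 351. Of 859 less open ones, the promoter was less open for 676 (78.7%), more open for 9 (1.05%) and did not pass for 174. Of 769 that did not pass themselves, the promoter was more open for 32 (4.16%) and less open for 433 (56.3%). Each gene-flank peak was set beside 1 promoter peak here, so the shares of all promoter peaks are no baseline for these counts. Within these counts, promoters opened most often beside more open peaks (8.32%, against 1.05% and 4.16%). They also closed least often there (39.5%, against 78.7% and 56.3%). A gene can enter these counts through several peaks, and these differences were not tested. At Shal the promoter peak had 117 and 109 RPKM at 72 h and 128 and 149 RPKM at 40 h, a change of -0.29 ± 0.18 (adjusted p = 0.20), beside the late opening within the gene. At hid promoter and gene-flank peak closed together, the promoter with 23.8 and 25.1 RPKM at 72 h and 197 and 270 RPKM at 40 h (-3.19 ± 0.22).

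RNA of the nearest genes changed in both directions. Of 1412 tested nearest genes, 474 (33.6%) had higher and 428 (30.3%) lower RNA at 72 h than at 40 h, against 30.2% and 29.1% of all tested genes (59.3% in either direction). At 60 h against 40 h the numbers were 398 (28.2%) and 365 (25.8%), against 25.2% and 22.5% of all tested genes (47.7% in either direction). At 72 h against 60 h they were 297 (21.0%) and 278 (19.7%), against 16.6% and 16.4% of all tested genes (33% in either direction). Without RNA 60 h replicates 1 and 2, the 2 libraries with the highest summed photoreceptor markers, the numbers were 239 lower at 60 h against 40 h, and 151 higher and 143 lower at 72 h against 60 h.

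Peak and RNA calls shared a direction more often than they opposed each other. Of 751 more open peaks with RNA tested at 72 h against 40 h, RNA of the gene was higher for 385 (51.3%) and lower for 119 (15.8%). Of 933 less open peaks, RNA was lower for 402 (43.1%) and higher for 223 (23.9%). Where the peak did not pass, RNA was higher for 35.0% and lower for 31.0% of 858 peaks. Genes with 1 tested gene-flank peak gave 92 higher and 51 lower RNA calls for 222 more open peaks, and 47 higher and 84 lower for 209 less open peaks. Over 2542 peaks at 1265 genes, the changes of peak and RNA had a Pearson r of 0.30 and a Spearman rho of 0.30. The values were 0.35 and 0.32 at 60 h against 40 h, and 0.24 and 0.24 at 72 h against 60 h. Peaks of 1 gene share its RNA value and all peaks share the same libraries, so these are descriptions. Promoter peaks had 0.27 and 0.19, and distal peaks 0.31 and 0.32, at 72 h against 40 h.

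**Figure D5:**
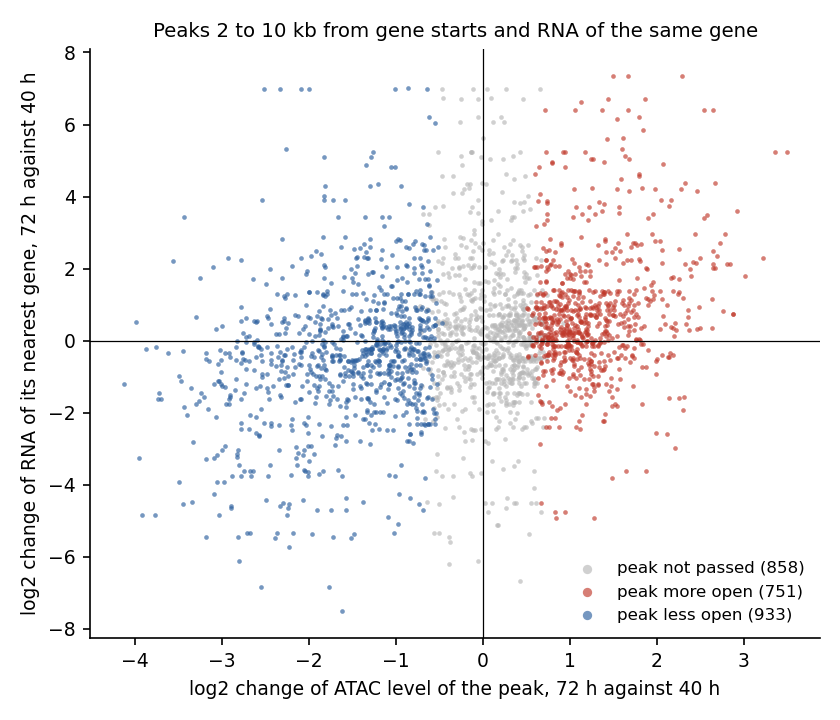
For each tested gene-flank peak with RNA tested, the log2 change of RNA of its nearest gene (vertical axis) against the log2 change of its ATAC level (horizontal axis), both at 72 h against 40 h; red peaks were more open (751), blue less open (933), grey did not pass (858). The cloud leans to the upper right and lower left, and many peaks lie in the other 2 corners.

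Some markers of other cell types lay among the nearest genes, and these peaks were looked up after the results were seen. Of 5 tested peaks at glial marker genes 2 were more open at 72 h than at 40 h and none less open. One was at Gs2, for the glial glutamine synthetase, with 57.2 and 59.6 RPKM at 72 h and 16.2 and 14.9 RPKM at 40 h, and Gs2 RNA was 220 and 825 RPKM at 72 h against 8.0 and 5.23 RPKM at 40 h. Of 10 tested peaks at photoreceptor genes 2 were more open and 8 less open, and the 3 peaks of Pxn, a gene of hemocytes, were less open. Among all tested gene-flank peaks 29.5% were more open and 36.7% less open, and these few peaks were not tested against that. RNA of photoreceptor markers did not fall as a list, with 2 of 9 higher and 1 lower. Pxn was the only measured hemocyte marker with gene-flank peaks, and crq, whose RNA rose, had none.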

How the data were processed

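Bulk ATAC-seq (6 libraries) and bulk RNA-seq (7 libraries) of sorted L1 neurons were used; 8 single-cell samples were not. Bowtie2 2.2.9, MACS2 2.1.1, bedtools and edgeR 3.26.8 stand in the submitters' processing notes, which give them no role. The RNA table was deposited in RPKM per the file headers. The ATAC table gave 1 unlabelled level per peak and library, peaks having been called on merged libraries per the peak names. The authors' ATAC values were read as RPKM, since level times width was a whole multiple of 1 step per library in 100% of values (tolerance 0.1 read). The library size implied by that step was below the reads in peaks at 40 h and above them at 72 h. The values were thus already scaled, in a way these sources do not describe.

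The authors also deposited the nearest gene and a distance for each peak. No source used here names the build. Gene starts implied by the distances equalled outer starts in the RefSeq Release 6 table for 83.0% of the 2853 peaks with a listed gene, which also fixed the sign of the distance, and peak positions are printed as deposited. No genome sequence was used.

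Values were taken as log2(RPKM + 1), a scale that understates changes of low features. Peaks above the lowest 10% of mean level (30.1 RPKM; 23508 of 26121) and genes that reached 1 RPKM in at least 2 libraries (6939 of 7076) were tested. For each assay 1 limma 3.58.1 fit in R 4.3.3 covered the 3 ages, with a variance trend and no block (residual degrees of freedom 3 for ATAC and 4 for RNA). Tests were two-sided, with Benjamini-Hochberg adjusted p under 0.05 per comparison over the whole table. The fit code was run on simulated data with few changed peaks, a simpler setting than these libraries. That run gives no error rate for the calls above. Tables were made with Python 3.11.15, pandas 2.3.3 and scipy 1.17.1.

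Named peaks were, among those past the threshold with no overlap between the libraries compared, the 8 largest rises and falls at 72 h against 40 h and the 5 largest of the other comparisons (1 peak a gene). To these came the largest rise and fall of each of 7 gene lists, the 10 genes with most peaks (with the 4 more that tied for the last places), and the 2 peaks nearest each distance bound. One of the 8 largest falls is not reported here. The members and lists were chosen with earlier results of these data known. Alternatives changed the pseudocount, filter, scaling, samples, moderation, distance range and replicate block.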

Additional observations from a re-analysis of the deposited data

How the results depend on the processing

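For named peaks, 1746 values kept their direction and side of the threshold under an alternative, 61 lost the threshold, 11 gained it and none reversed. Among the counts, 192 stayed within 1.5 times. At 72 h against 40 h, 507 peaks were more open when the lowest 25% of peaks were left out. At 72 h against 60 h, 76 were more open under quantile normalization and 115 less open when scaled to total reads in peaks. In that comparison 135 were less open without the variance trend, 22 were more open at distances of 3000 to 9000 bp, and 0 passed in either direction when the 2 ages were fitted alone (799 at an unadjusted p under 0.05). The cause was not tested, but the narrower distance range and the higher filter test fewer peaks. limma's voom on recovered reads, chosen after seeing the data, gave 767 and 944, 468 and 628, and 35 and 149 peaks more and less open. The planned edgeR test was not run, since the deposited values are RPKM.

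Leaving out 1 ATAC library gave 455 to 879 more open and 699 to 1014 less open peaks at 72 h against 40 h, 323 to 702 and 386 to 687 at 60 h against 40 h, and 4 to 277 and 39 to 459 at 72 h against 60 h. Leaving out 1 RNA library gave 428 to 464, 331 to 404 and 215 to 311 higher, and 368 to 410, 295 to 372 and 205 to 283 lower nearest genes in the 3 comparisons. Called peaks with RNA past the threshold the same way numbered 732 to 768, 472 to 542 and 78 to 98, against 787, 531 and 96. Without RNA 60 h replicates 1 and 2, also chosen after seeing the data, 239 nearest genes were lower at 60 h against 40 h, and 151 were higher and 143 lower at 72 h against 60 h, with 63 such peaks.

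The numbers were not taken to pair the libraries. Deviations of same-numbered ATAC libraries correlated at -0.47 (40 h with 60 h), -0.11 (40 h with 72 h) and 0.55 (60 h with 72 h), and of RNA libraries at -0.09 to 0.22. With the replicate number as a block, 793 and 955, 491 and 618, and 53 and 241 (36 and 205 without it) peaks were more and less open, and 470 and 416, 362 and 342, and 284 and 249 nearest genes higher and lower. Depth (246 to 309 reads in the median peak) limits low peaks most, and 2 libraries per age limit every comparison.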

Other observations

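Gene-flank peaks whose gene's RNA passed in the other direction at 72 h against 40 h were looked up after the results above, by the size of the peak's change among peaks with no overlap between the ages. The largest rises of this kind were at sbb, dock, Npl4, Syn1 and NUCB1. The dock peak, at the gene of an SH2/SH3 adaptor of axon guidance, had 78.4 and 93.1 RPKM at 72 h and 18.3 and 14.8 RPKM at 40 h (2.31 ± 0.22), and dock RNA was 29.7 and 29.8 RPKM at 72 h and 115 and 118 RPKM at 40 h. The Syn1 peak, at a syntrophin gene, had 56.3 and 63.7 RPKM at 72 h and 11.3 and 13.2 RPKM at 40 h (2.21 ± 0.26), and Syn1 RNA was lower by 2.99 ± 0.16.

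The largest falls with higher RNA were at Lip4, naz, Tusp, bab2 and Ggamma30A. Ggamma30A encodes a G protein gamma subunit known from phototransduction. Its peak (9.21 kb) had 20.5 and 27.5 RPKM at 72 h and 185 and 241 RPKM at 40 h (-3.10 ± 0.23), and its RNA was 1491 and 1131 RPKM at 72 h and 309 and 315 RPKM at 40 h. At Tusp the peak had 17.1 and 12 RPKM at 72 h and 127 and 177 RPKM at 40 h. Tusp RNA was 15.3 and 14.4 RPKM at 40 h, 4.24 to 5.53 RPKM at 60 h, and 25.9 and 22.2 RPKM at 72 h, so it was lowest at the middle age.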
